A study of Mus musculus with 6 samples.

Results

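The mouse let-7 family was measured in left ventricle, the main pumping chamber of the heart, from mice given sunitinib or vehicle. Its 10 members were taken by name rather than by their values. They are mmu-let-7a-5p, mmu-let-7b-5p, mmu-let-7c-5p, mmu-let-7d-5p, mmu-let-7d-3p, mmu-let-7e-5p, mmu-let-7f-5p, mmu-let-7g-5p, mmu-let-7i-5p and mmu-miR-98-5p, written without the prefix mmu for mouse from here on. They make up 10 of the 1881 mouse miRNAs and 22 of the 4415 probes on the arrays. Sunitinib is an oral inhibitor of receptor tyrosine kinases, used against kidney and gastrointestinal stromal tumours, and heart dysfunction is among its known adverse effects. All mice were male C57BL/6, with no transgene or mutation in the labels. The control group held 3 samples from mice given vehicle and the sunitinib group 3 samples from mice given the drug. Age, dose and length of treatment were not given in the sources used here. The labels do not state that each sample is its own animal, so p-values measure the spread between these samples, which may be technical.

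A miRNA is a short RNA that guides an Argonaute protein to messenger RNAs, most often through its seed, bases 2 to 8, and lowers their output. Members of the let-7 family are cut from hairpin precursors by Drosha and Dicer. The protein LIN28 blocks that processing in embryonic cells, so mature let-7 accumulates as tissues differentiate, the adult heart included. Known targets include the messengers of Ras proteins, HMGA2 and LIN28 itself. One arm of a hairpin, here the 5p arm, is usually kept, and the other is mostly degraded.

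The mature sequences are printed to show how little separates the members, since a probe for one must tell it from the others. All 10 were matched by name in the RefSeq table, on assembly GRCm38.p6. Capitals mark the seed.
let-7a-5p: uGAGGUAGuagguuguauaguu
let-7b-5p: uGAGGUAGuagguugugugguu
let-7c-5p: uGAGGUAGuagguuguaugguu
let-7d-5p: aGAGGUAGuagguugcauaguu
let-7e-5p: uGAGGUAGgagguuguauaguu
let-7f-5p: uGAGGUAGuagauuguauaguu
let-7g-5p: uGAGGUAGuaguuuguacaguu
let-7i-5p: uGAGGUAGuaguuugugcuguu
miR-98-5p: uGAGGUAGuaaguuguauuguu
let-7d-3p: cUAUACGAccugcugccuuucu

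The first 9 of these sequences share the seed GAGGUAG. let-7d-3p, the opposite arm of the let-7d hairpin, has another. Against let-7a-5p, with positions counted from the 5′ end, let-7c-5p carried A19G, let-7e-5p U9G and let-7f-5p G12A, a single base each. let-7b-5p carried A17G and A19G, let-7d-5p U1A and U16C, let-7g-5p G12U and U18C, and miR-98-5p G11A and A19U. let-7i-5p was the most distant from let-7a-5p, with G12U, A17G, U18C and A19U. Between any pair of the 9, the number of differing bases ran from 1 to 6.

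Several members come from shared clusters. On chromosome 13, minus strand, let-7a-5p (chr13:48538239-48538260), let-7f-5p (chr13:48537889-48537910) and let-7d-5p (chr13:48536078-48536099) follow one another. Their hairpins are separated by 261 and 1714 bases, and no other annotated gene spans them. let-7d-3p (chr13:48536024-48536045) comes from the other arm of the last hairpin, and let-7a-5p has a second hairpin, let-7a-2, on chromosome 9. On chromosome 15, plus strand, let-7c-5p (chr15:85706616-85706637) and let-7b-5p (chr15:85707325-85707346) come from hairpins 621 bases apart, inside the long noncoding gene Lncppara. On the X chromosome, plus strand, the second copy of let-7f-5p (chrX:151912353-151912374) and miR-98-5p (chrX:151913229-151913250) come from hairpins 785 bases apart, inside the ubiquitin ligase gene Huwe1. let-7g-5p (chr9:106178846-106178867, plus strand) lies within the protein-coding gene Wdr82, and let-7e-5p (chr17:17830366-17830387, plus strand) within the protein-coding gene Spaca6. let-7i-5p (chr10:122985698-122985719, minus strand) and the second copy of let-7c-5p (chr16:77599672-77599693, plus strand) lie in no other annotated gene. Mature let-7c-5p and let-7f-5p are each identical from both copies, so the arrays cannot tell apart the RNA of the copies. Nor can the reading of let-7a-5p be assigned to either of its hairpins.

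All 6 arrays were on 1 slide, and 10.94% to 11.98% of the spots on each were well above background. That limit was set by the scanner software at 13 times the background SD. No spot was saturated. From 234 to 252 miRNAs were well above background on an array, and 237 were tested. All 10 members were well above background on 6 of 6 arrays and were among those tested. The muscle miRNAs miR-1a-3p, miR-133a-3p, miR-208a-3p and miR-499-5p passed that limit on 6 of 6. The liver marker miR-122-5p and the brain markers miR-124-3p and miR-9-5p were on 0 of 6. The arrays measured whole tissue, in which fewer cells of a type and less RNA per cell cannot be told apart.

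Between the groups, no member of the family passed the test. The sunitinib mean lay above the control mean for 8 of 10 members, and for 6 of 10 with quantile normalization or in the deposited value table. The median difference was 0.10 on the log2 scale. Over all 237 tested miRNAs the sunitinib mean was the higher in 125, with a median of 0.02. By limma with adjusted p below 0.05, 0 of 10 members were called, against 3.38% of all tested miRNAs. The sunitinib arrays lay above the control arrays without overlap for 5 of 10 members, against a background of 18.1%. No member lay below without overlap, where the background was 9.28%. The next brightest probe was well above background in 9 members. By that probe 2 lay above without overlap, let-7a-5p and let-7d-5p, against a background of 12.7%. let-7f-5p lay below without overlap by that probe, against a background of 10.3%. By unadjusted p below 0.05, 1 member was called, let-7d-3p, against a background of 19%. Values below are log2 of the scaled spot signal, and each member's level is that of its brightest probe. Since probes differ in how strongly they bind, levels were not used to compare amounts of RNA between members.

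**Figure D1:**
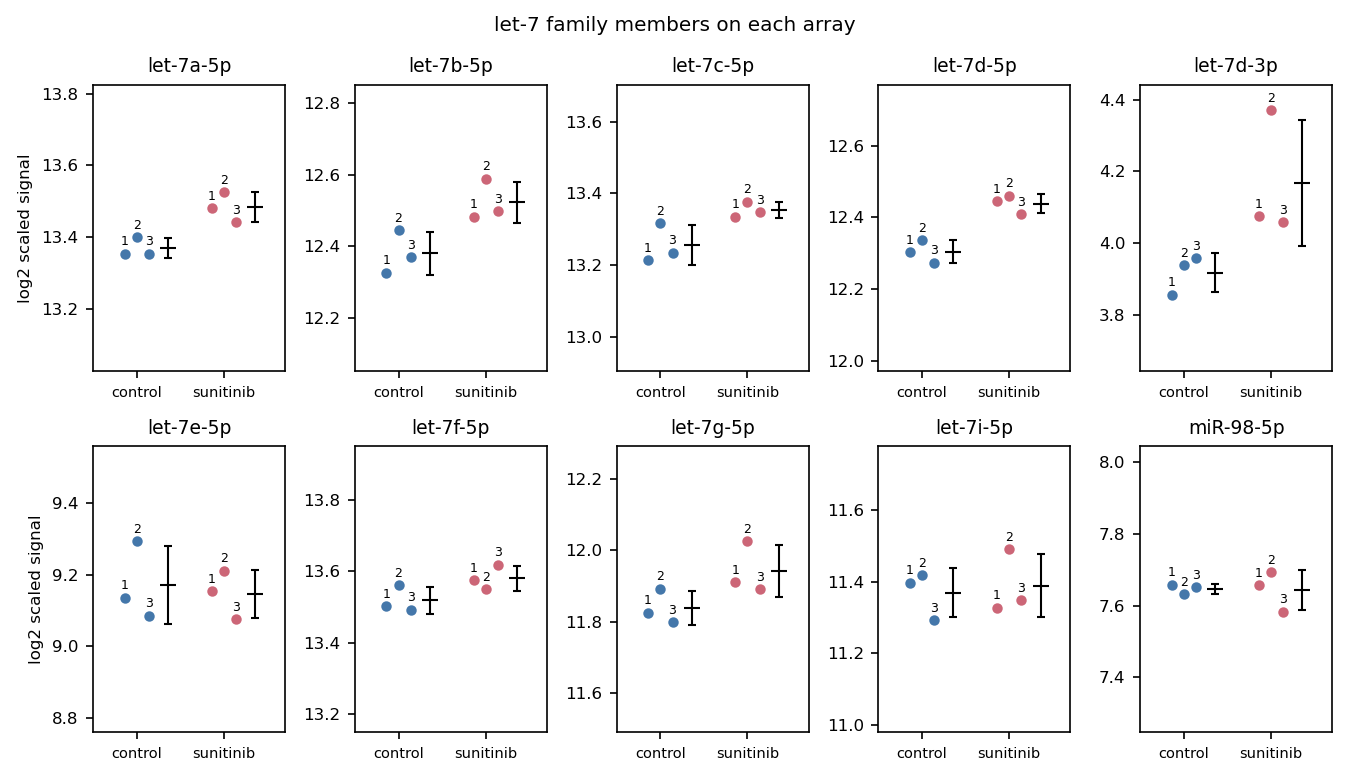
Log2 scaled signal of the 10 members on each of 3 control and 3 sunitinib arrays, where the number above a point is the replicate and the bars give the group mean and SD. The groups are apart in let-7a-5p, let-7b-5p, let-7c-5p, let-7d-5p and let-7d-3p and overlap in the other 5 members.

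Of the shared-seed members, let-7a-5p, let-7b-5p, let-7c-5p and let-7d-5p had groups that did not overlap. let-7a-5p, the family's reference member, read 13.35, 13.40 and 13.35 in the control arrays, in the order of their replicate numbers, and 13.48, 13.53 and 13.44 in the sunitinib arrays. The lowest sunitinib array stood 0.04 above the highest control array. The means were 13.37 ± 0.027 and 13.48 ± 0.042 (SD, n = 3 each), a difference of 0.11 (SE 0.057) with a limma adjusted p of 0.330. That amounts to 1.08-fold.

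let-7b-5p read 12.33, 12.45 and 12.37 in the control arrays and 12.48, 12.59 and 12.50 in the sunitinib arrays. All 3 sunitinib arrays were above the highest control array, the nearest by 0.04. Its difference was 0.14 (SE 0.065, limma adjusted p 0.297). let-7c-5p, its cluster partner on chromosome 15, read 13.21, 13.32 and 13.23 against 13.33, 13.38 and 13.35. Control replicate 2 was the high control array for both, and for let-7c-5p it came within 0.02 of the lowest sunitinib array. The difference of let-7c-5p was 0.10 (SE 0.059, limma adjusted p 0.420), or 1.07-fold.

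let-7d-5p read 12.30, 12.34 and 12.27 in control and 12.44, 12.46 and 12.41 with sunitinib. The nearest arrays of the groups were 0.07 apart, the widest gap among the shared-seed members. Its means were 12.30 ± 0.031 and 12.44 ± 0.026 (SD, n = 3 each), and the difference of 0.13 (SE 0.056) had a limma adjusted p of 0.263. Its 95% interval, -0.0014 to 0.27, reached just past 0.

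let-7d-3p, which derives from the same hairpin as let-7d-5p but does not share its seed, was read at low signal. Its values were 3.86, 3.94 and 3.96 in control and 4.07, 4.37 and 4.06 with sunitinib. Sunitinib replicate 2 stood apart from the other sunitinib arrays, and the groups were 0.10 apart at their nearest. The means were 3.92 ± 0.054 and 4.17 ± 0.18 (SD, n = 3 each). The difference of 0.25 (SE 0.10, 95% interval 0.01 to 0.49) had a limma unadjusted p of 0.0441 and an adjusted p of 0.249. Without sunitinib replicate 2 the difference was 0.15. It was 0.08 with normexp background correction, 0.02 in the deposited value table and 0.0010 with the mean of its 4 probes. The reading rests on 1 of its 4 probes, of 18 bases, because the shorter 3 passed the background limit on 0 of 6 arrays.

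The remaining shared-seed members had overlapping groups. let-7f-5p, cut from the chromosome 13 cluster and from the X chromosome, read 13.50, 13.56 and 13.49 against 13.57, 13.55 and 13.62. Sunitinib replicate 2 lay below control replicate 2, and the difference was 0.06 (SE 0.058, limma adjusted p 0.629). let-7g-5p read 11.83, 11.89 and 11.80 against 11.91, 12.03 and 11.89. The nearest arrays, control replicate 2 and sunitinib replicate 3, were equal to 2 decimals, with the control array marginally the higher. The difference was 0.10 (SE 0.066, limma adjusted p 0.452).

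let-7e-5p and let-7i-5p, from separate chromosomes, showed no separation. let-7e-5p read 9.14, 9.29 and 9.09 in control and 9.15, 9.21 and 9.08 with sunitinib, a difference of -0.02 (SE 0.079, limma adjusted p 0.882). let-7i-5p read 11.40, 11.42 and 11.29 against 11.33, 11.49 and 11.35, a difference of 0.02 (SE 0.073, limma adjusted p 0.888). In each of them one group held the highest array and the other the lowest. miR-98-5p, the member with its own name and with the X-linked copy of let-7f as neighbour, read 7.66, 7.63 and 7.65 against 7.66, 7.69 and 7.58. The groups overlapped almost fully, with a difference of -0.0032 (SE 0.059, limma adjusted p 0.983).

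**Figure D2:**
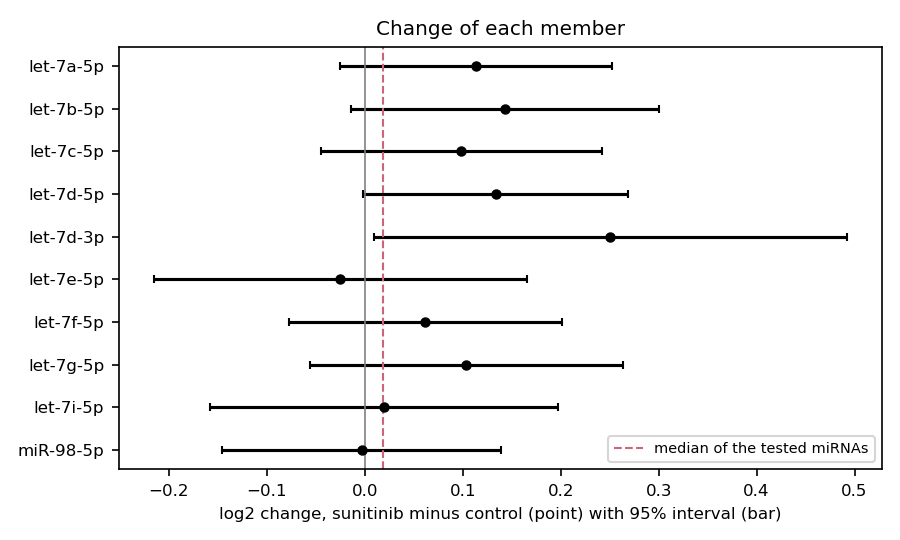
Log2 difference of each member, sunitinib minus control, as a point with its 95% interval from the limma fit (n = 3 per group), and the median of the 237 tested miRNAs as a dashed line. The interval of let-7d-3p (0.01 to 0.49) lies above 0 and those of the other 9 members include 0.

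Each of these intervals covers 1 member, by its brightest probe and as scaled here, without adjustment for the number of miRNAs. Over the 10 members they ran from -0.22 to 0.49, or from 1.16-fold lower to 1.41-fold higher in sunitinib samples. For the 9 shared-seed members the upper bound was 1.23-fold. Some other settings gave wider intervals. By the next brightest probe of let-7e-5p the interval reached -0.32. Without scaling the SE of let-7e-5p was 0.17, in place of 0.079. By the median, the members were measured with less scatter than the tested miRNAs as a whole. Their pooled SD within groups had a median of 0.05, from 0.03 to 0.13, while the median over all tested miRNAs was 0.11. Most members were bright and most of the other miRNAs were not, and scatter was not compared at like signal. The 8 miRNAs that passed the test included 2 that are abundant in myeloid blood cells. miR-223-3p fell by 1.32 (limma adjusted p 0.000860) and miR-142a-3p fell by 0.64 (limma adjusted p 0.0200), 2 of the 2 markers listed for that cell type. Over the 6 arrays, miR-223-3p ran from 8.22 to 8.47 in control and from 6.91 to 7.04 in sunitinib samples. Whether a shift in cell content bears on the let-7 values was not tested.

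Several members were high or low on the same arrays. Centred on each member's own mean, the median over the 10 members was -0.07, -0.0026 and -0.08 in the control arrays and 0.03, 0.09 and 0.02 in the sunitinib arrays, in replicate order. Sunitinib replicate 2 was the highest of the 6 arrays for 8 of 10 members. The median over all tested miRNAs was also highest there, at 0.05. Control replicate 2 was the highest control array for 8 of 10. Control replicates 1 and 3 were the lowest array for 4 members each. The pattern depended on the scaling. Over the 9 shared-seed members, the median of control replicate 1 moved from -0.07 to 0.03 in the deposited value table and that of sunitinib replicate 1 from 0.02 to -0.02. Without scaling, control replicate 3 stood at -0.29. Across the 36 pairs of shared-seed members, Pearson's r over the 6 arrays had a median of 0.47 and ran from -0.60 for let-7f-5p with miR-98-5p to 0.98. With group means removed the median was 0.68. The pairs share arrays and scaling factors, so the correlations are given as a description.

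The position on the slide moved with the groups. All 3 control arrays and sunitinib replicate 3 were in the second row of the slide, and sunitinib replicates 1 and 2 were in the first. With the row as a block, which compares sunitinib replicate 3 with the 3 control arrays of its row, the lowest limma adjusted p of a member was 0.757 and 1 miRNA was called over all tested. The differences were then 0.07 for let-7a-5p, 0.12 for let-7b-5p, 0.09 for let-7c-5p, 0.10 for let-7d-5p and 0.14 for let-7d-3p. Those of let-7f-5p and let-7g-5p were 0.10 and 0.05. let-7e-5p stood at -0.10, let-7i-5p at -0.02 and miR-98-5p at -0.06. Within that row the sunitinib array was thus the higher for 7 of 10 members, and the first row held no control array.

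Each shared-seed member was read by a pair of nested probes, the longer with 1 more base, both named for the same RNA. The probes shown are those of let-7e-5p, let-7f-5p and let-7g-5p, in which the gap between both readings exceeded that in control the most, and of miR-98-5p, in which it was smaller than in control. Each is written 5′ to 3′, and the capital is the added base, which pairs with a base nearer the 5′ end of the miRNA.
let-7e-5p shorter probe: aactatacaacctcctac
let-7e-5p longer probe: aactatacaacctcctacC
let-7f-5p shorter probe: aactatacaatctactacct
let-7f-5p longer probe: aactatacaatctactacctC
let-7g-5p shorter probe: aactgtacaaactactacct
let-7g-5p longer probe: aactgtacaaactactacctC
miR-98-5p shorter probe: aacaatacaacttactacctc
miR-98-5p longer probe: aacaatacaacttactacctcA

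All 22 probes pair in full with the miRNA they are named for. Of these, 12 are 1 mismatch away from pairing with another member and 6 are 2 mismatches away. A reading can therefore hold signal from a neighbour in sequence, and how much was not tested. In 9 of 9 pairs the longer probe was the brighter one and stood for its miRNA above.

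The difference, sunitinib minus control, was higher by the longer probe than by the shorter one in 8 of 9 members. In let-7e-5p, 1 of the 8, both probes fell, the longer by less (-0.02 against -0.13). Of 165 miRNAs with 2 probes well above background on every array, the brightest was the longer in 152, and the background over these 152 was 67.8%. The median of the brightest probe's change minus that of the next brightest was 0.07 over the members and 0.04 over the 143 others of that set. In let-7g-5p the longer probe exceeded the shorter by 0.86, 0.94 and 0.89 in control and by 1.07, 1.06 and 0.98 with sunitinib. The groups did not overlap, and the probes' own differences were 0.10 and -0.04. In let-7f-5p the excess was 1.64, 1.69 and 1.60 in control and 1.74, 1.77 and 1.75 with sunitinib. Again the groups were apart. The longer probe read 0.06 and the shorter -0.05, so the direction for let-7f-5p and let-7g-5p depended on the probe.

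In let-7e-5p the excess was 0.97, 1.05 and 0.98 in control and ran from 1.05 to 1.14 with sunitinib. In let-7b-5p it was 0.83, 0.88 and 0.86 against 0.94, 0.92 and 0.94. Both were apart between groups, let-7e-5p by less than rounding shows, which made 4 of 9 members higher without overlap where the background over the 152 was 23%. miR-98-5p went the other way, from 0.62, 0.61 and 0.64 to 0.56, 0.56 and 0.60, lower without overlap. That was 1 of 9 members, where the background was 8 of the 152. let-7a-5p, let-7c-5p, let-7d-5p and let-7i-5p had overlapping groups with differences of 0.04, 0.08, 0.05 and 0.04. The comparison of nested probes was chosen after the values were seen.

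**Figure D3:**
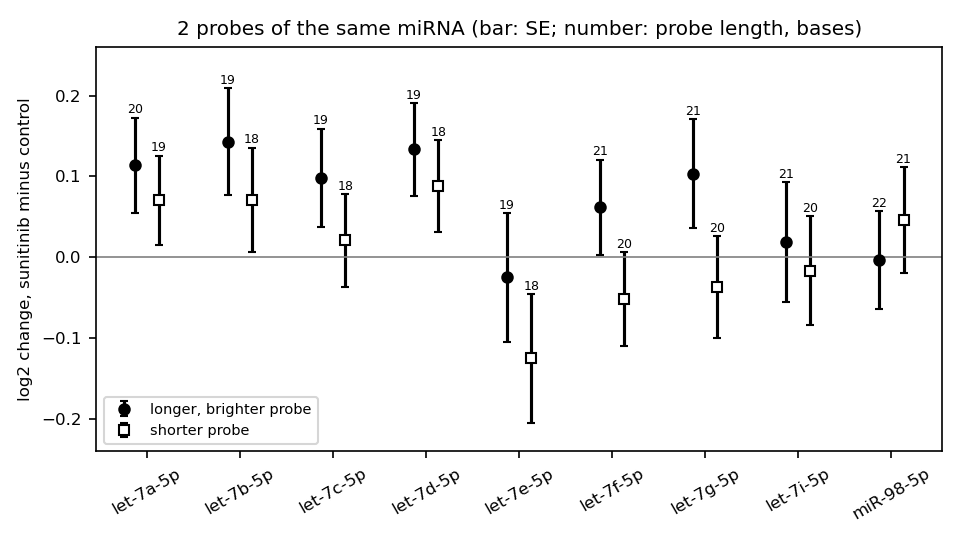
Log2 difference, sunitinib minus control, read by the longer (filled circle) and the shorter (open square) probe of each of 9 shared-seed members, with the limma SE as bars and the probe length in bases above each. The longer probe lies above the shorter in 8 of 9 members, and the signs are opposite in let-7f-5p, let-7g-5p, let-7i-5p and miR-98-5p.

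Most members were read at the bright end of these arrays, where the other miRNAs also had a median above 0. A mean level of 11 or more was used as a dividing line, chosen after the values were seen. Above it lay 7 members, with a median of 0.10, and 4 of these had groups apart. All 7 differences were positive as scaled here. Those of let-7d-5p and let-7i-5p turned with quantile normalization, where let-7a-5p and let-7f-5p came to 0. With the next brightest probe and in the deposited value table, let-7f-5p, let-7g-5p and let-7i-5p turned. The sign for let-7i-5p turned in 7 of 22 alternatives. The 24 other miRNAs above it had a median of 0.07, 19 were above 0 and 6 (25%) had sunitinib higher without overlap. Among the 203 other miRNAs below the line the median was -0.0053, and 15.8% were higher without overlap. The 3 members below it, let-7d-3p, let-7e-5p and miR-98-5p, had a median of -0.0032. Whether signal level bears on the members' differences was not tested.

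**Figure D4:**
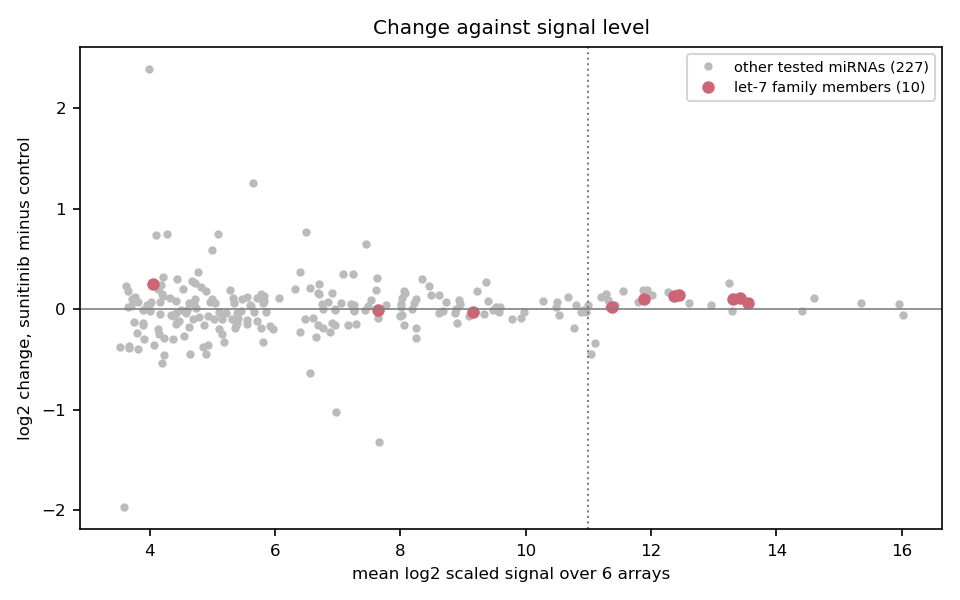
Log2 difference, sunitinib minus control, against the mean log2 scaled signal over 6 arrays for 10 let-7 family members and 227 other tested miRNAs, with the dotted line at a level of 11. The 7 members right of the line lie between 0.02 and 0.14, and 19 of the 24 other miRNAs there are also above 0.

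The size of the family's difference depended on the processing. The members' median was 0.13 with the 75th percentile taken over all probes, 0.11 without scaling and 0.09 with normexp background correction. It was 0.02 with quantile normalization and 0.0097 in the deposited value table. With the next brightest probe, which was well above background in 9 members, the members' median was 0.02. The median over all tested miRNAs ran from -0.02 to 0.04 under the same settings, so the members' median stayed above it in each. No member was called under any of the 22 alternatives, and the lowest adjusted p was 0.117, for let-7d-3p with quantile normalization in limma. The sign for let-7b-5p and let-7c-5p held in 22 of 22 and that for let-7d-3p in the 20 that gave it a value, but the sizes did not. Those counts include settings that left the differences exactly as reported, named in the closing section, which say nothing about the sign. let-7b-5p went from 0.14 to 0.06 with quantile normalization and 0.03 in the deposited value table. let-7c-5p went from 0.10 to 0.02 with quantile normalization or the next brightest probe and to 0.01 in the deposited value table. The sign for let-7d-5p turned with quantile normalization.

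**Figure D5:**
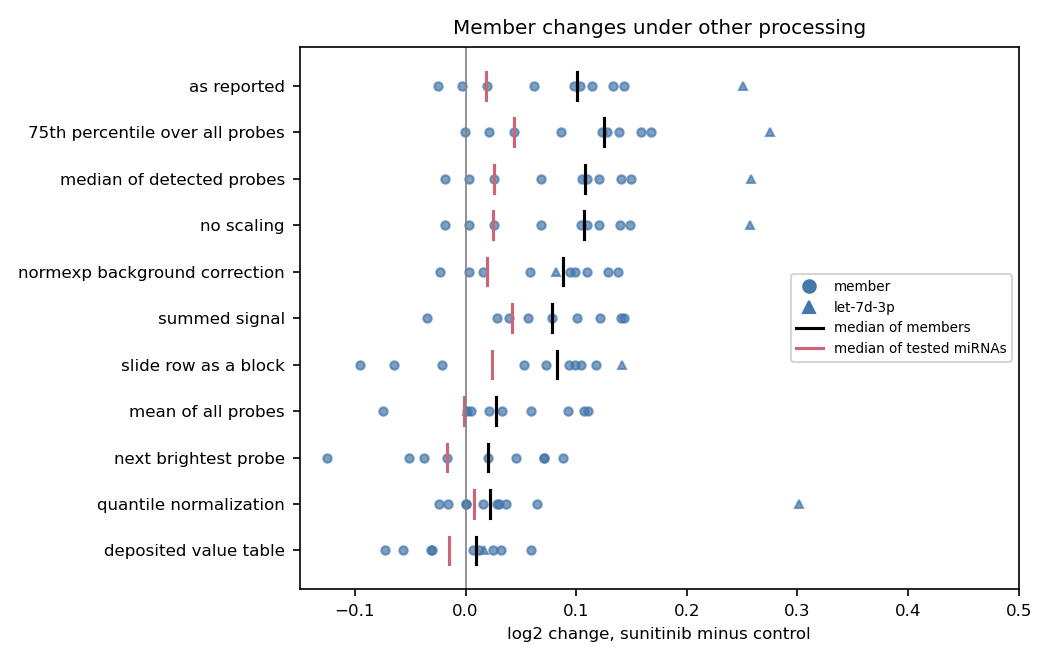
Log2 differences of the members (circles, let-7d-3p as a triangle) under 11 ways of processing, with the median of the members as a black bar and of the tested miRNAs as a red bar. The members' median lies at 0.10 as reported and at 0.02, 0.02 and 0.0097 with the next brightest probe, quantile normalization and the deposited value table.

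The arms of the let-7d hairpin were set against each other as the log2 difference 5p minus 3p. It was 8.45, 8.40 and 8.32 in control and 8.37, 8.09 and 8.35 in sunitinib samples. Sunitinib replicate 2 was the lowest and the groups overlapped. The means were 8.39 ± 0.066 and 8.27 ± 0.16 (SD, n = 3 each), apart by -0.12, with an exact two-sided permutation p of 0.4, where 0.1 is the smallest that 3 against 3 samples allow. Without sunitinib replicate 2 it was -0.03, within the second slide row -0.04 and with quantile normalization -0.32. The direction turned with normexp correction, with the mean of all probes and in the deposited value table. The mean of all probes takes in the shorter let-7d-3p probes, which passed the background limit on no array. Since different probes read the arms, only the change in this difference can be read, not its size.

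The other strands of the family were at or under the detection limit. The arrays carried 11 more names of the family, let-7a-1-3p, let-7a-2-3p, let-7b-3p, let-7c-1-3p, let-7e-3p, let-7f-1-3p, let-7f-2-3p, let-7g-3p, let-7i-3p, let-7j and miR-98-3p. Of these, 10 were well above background on 0 of 6 arrays and none was tested. let-7k and miR-1961 share the seed GAGGUAG without being counted in the family here. Both were well above background on 0 of 6 arrays, which bounds their signal and does not show that they are absent.

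Some let-7 hairpins lie beside members of the miR-99/100 and miR-125 families, which are known as cluster partners of let-7. The hairpins of let-7c-1 and miR-99a are 656 bases apart on chromosome 16, those of let-7e and miR-125a 367 on chromosome 17, and those of let-7a-2 and miR-100 5211 on chromosome 9, inside the noncoding gene Mir100hg. Of 11 strands of these partners, 5 were tested and 0 were called by limma (1, miR-99b-5p, by unadjusted p below 0.05). Their median difference was -0.0094. miR-99a-5p stood at 0.09 (limma adjusted p 0.444), beside 0.10 for let-7c-5p. miR-125a-5p stood at -0.15 (limma adjusted p 0.367) and miR-99b-5p at -0.23 (limma adjusted p 0.195), beside -0.02 for let-7e-5p. miR-100-5p read -0.0094 and miR-125b-5p 0.07.

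By profile over the 6 arrays, 3 other miRNAs were most like the members' median. Among 213 candidates well above background on all arrays, miR-30c-2-3p had a Pearson r of 0.968, miR-192-5p of 0.950 and miR-3102-5p of 0.921, over 6 arrays each. miR-30c-2-3p read 5.65, 5.77 and 5.68 in control and 5.86, 5.91 and 5.79 with sunitinib. Control replicate 2 was its high control array and sunitinib replicate 2 the highest of all. In miR-3102-5p sunitinib replicate 1 was the highest, at 5.68. Since the 3 were picked for their likeness to the members, a shared pattern over the arrays follows from the choice. The differences of these 3 were 0.15, 0.16 and 0.75, and none passed the test (limma adjusted p 0.265, 0.351 and 0.114).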

How the data were processed

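Total RNA (200 ng per sample) from 3 control and 3 sunitinib left ventricles was labelled with Cy3 and hybridised to Agilent mouse miRNA arrays, per the labels. The deposited scanner files give spot intensity, already background-subtracted on a linear scale, per the file headers (Feature Extraction 10.7.1.1, build mm9; the submitters' processing notes name 10.7). The authors' processed log2 values of these arrays, in a deposited value table, served as an alternative, as did the scanner software's deposited summed intensity per miRNA. How that table was scaled and centred is not given in the sources used here. Medians of its columns ran from 2.195 to 2.200, and its differences between arrays followed those of the scanner values (Pearson r 0.919 to 0.954 per array).

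Control spots and spots flagged as non-uniform or outliers were left out. Each array was scaled on the 75th percentile of 393 probes that were well above background throughout. A floor of 1 was set before taking log2, and the spots of each probe, 15 for a shared-seed member, were averaged. A probe counted as well above background where at least 50% of its spots did, and the brightest probe stood for its miRNA. A miRNA entered the limma 3.58.1 test (R 4.3.3) when all arrays of either group passed that limit. Adjustment was by Benjamini-Hochberg over 237 miRNAs, with a threshold of 0.05. The scripts were tested on simulated data. The members and lists were chosen with earlier results of these data known. All members were named, with the family's other strands, miRNAs sharing the seed, cluster neighbours and the 3 miRNAs most alike in profile. The sources state no pairing. Deviations of same-numbered arrays correlated at 0.18, 0.22 and -0.06, so the numbers were not treated as pairs. The alternatives are listed in the closing section.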

Additional observations from a re-analysis of the deposited data

Results flagged for a closer look

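let-7c-1-3p, the opposite strand of one let-7c hairpin, was not tested because it was well above background on too few arrays. Of the 3 sunitinib arrays it passed that limit on 1, replicate 1, and it passed on 0 of the 3 control arrays. Its log2 scaled signal was 3.10, 2.98 and 2.43 in control and 3.45, 3.27 and 2.98 in sunitinib samples. The groups overlapped, with means of 2.84 ± 0.36 and 3.24 ± 0.24 (SD, n = 3 each).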

How the results depend on the processing

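In all 22 alternatives no tested member passed the threshold, with adjusted p of 0.117 or more in limma. let-7d-3p was tested in 20 of them. let-7b-5p and let-7c-5p kept their direction in 22 of 22 but not their size, at 0.03 and 0.01 in the deposited value table. Some of the 22 left the members' differences exactly as reported and so say nothing about direction. These were no filter, a filter of well above background on all arrays, a floor of 10, an intensity trend in limma and the replicate number as a block. With 3 arrays a group, the intervals of the shared-seed members include 0. Each interval covers a single member, by its brightest probe and as scaled here, and does not bound the family as a whole. The median scatter of the members was below that of the tested miRNAs, but it was not compared at like signal. The number of arrays and the closeness of the probes' sequences limit what can be said of single members. Where a value moved, the cause was not tested.

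Of the tested miRNAs, 8 were called as reported, 4 with normexp, quantile normalization or no scaling, 2 with the summed signal, 3 with no filter and 13 with array weights. Blocking on slide row gave 1, and leaving out 1 array 2 to 8. With the replicate number as a block (replicate block) 2 were called, and the lowest adjusted p of a member was 0.344. Not every array correlated best with its own number. The members' median difference was 0.10 as reported, 0.022 with quantile normalization, 0.027 with the mean of all probes, 0.021 with the next brightest probe and 0.0097 in the deposited value table. Leaving out 1 array gave 0.082 to 0.13.

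The let-7d arm difference turned to 0.047 with normexp, 0.11 with the mean of all probes and 0.042 in the deposited value table. That mean takes in let-7d-3p probes that passed the background limit on no array. miR-98-5p turned to 0.0031 with normexp, 0.021 with the 75th percentile over all probes, 0.0035 with the median of detected probes, 0.028 with quantile normalization, 0.0030 without scaling, 0.021 with the mean of all probes, 0.046 with the next brightest probe, 0.039 with the summed signal and 0.0070 in the deposited value table. let-7i-5p turned to -0.024 with quantile normalization, -0.0165 with the next brightest probe, -0.021 when slide row was blocked, -0.0097 with array weights and -0.030 in the deposited value table. let-7d-5p turned to -0.016 and let-7e-5p to 0.030 with quantile normalization, where let-7a-5p and let-7f-5p came to 0. With the next brightest probe let-7f-5p read -0.051 and let-7g-5p -0.037, and in the deposited value table -0.073 and -0.031. Leaving out 1 array gave -0.068 to 0.036 for let-7e-5p, -0.031 to 0.050 for let-7i-5p and -0.027 to 0.027 for miR-98-5p. let-7d-3p has no value with the next brightest probe, since that probe was not well above background, and none with the summed signal.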

Other observations

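The scanner software also deposits a summed signal per miRNA, and for let-7d-3p that number did not come from its own probes alone. Its summed signal ran from 2445.45 to 3357.7 over the 6 arrays, while the totals of its own 4 probes added to between 2.40 and 3.13. On each array the summed signal equalled that of let-7c-5p plus the totals of 1 (4 arrays) or 2 (2 arrays) let-7d-3p probes, to within 0.0049 signal units. On control replicate 1, for example, it was 3111.77, against 3110.16 for let-7c-5p plus 1.61. For the other 9 members the summed signal equalled the sum of their own probes' totals to within 0.1%. From 32 to 43 of the 237 tested miRNAs, depending on the array, had a summed signal more than 10% above the sum of their own probes. The cause was not tested. The values reported for let-7d-3p come from its own 18-base probe.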
